A study of Mus musculus with 6 samples.

Results

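The 8 genes described here, Pde1b, Pde2a, Pde3b, Pde4a, Pde4b, Pde4d, Pde7a and Pde8a, encode cyclic nucleotide phosphodiesterases. They were taken by symbol, and all 8 of 8 were found among the 52459 genes of the deposited count table. The set was chosen by a measured value, the small p of Pde1b in the contrast of RIP1i with DMSO (rank 10 of 14857 tested genes by unadjusted p), and the other members were selected on family. The differences of the 8 genes between the treatments are therefore given as a description, with intervals and without a test. Another 16 genes of the family served for comparison. RNA was sequenced from mouse macrophages that had been raised from C57BL/6 bone marrow in GM-CSF, a myeloid growth factor. After 7 days of culture the cells received RIP1i (3 libraries) or the solvent DMSO (3 libraries) overnight. Which compound RIP1i is, and at what dose, is not in the labels, nor is whether the replicates were separate animals or cultures, so the spread between libraries may be technical. The design set the transcriptome under RIP1i against that of the control.

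Cyclic AMP and cyclic GMP are made by adenylyl and guanylyl cyclases and broken down by phosphodiesterases. Cyclic AMP acts through protein kinase A, the exchange factors of the Epac type and the transcription factor CREB, and in macrophages it is known to dampen inflammatory cytokine output. The families differ in substrate and control: PDE1 is switched on by calcium and calmodulin and takes both nucleotides, PDE2 is stimulated and PDE3 inhibited by cyclic GMP, and PDE4, PDE7 and PDE8 are specific for cyclic AMP.

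Library totals lay between 40264902 and 44862310 counts. Markers of macrophages were high in every library, with 51810, 45300 and 54395 summed CPM (read counts scaled to library size with TMM factors) over 9 genes in RIP1i replicates 1 to 3 and 53882, 59485 and 51875 in DMSO. The summed level of 10 stromal markers ranged from 75.4 to 223 CPM in RIP1i and from 81.9 to 345 CPM in DMSO, and that of 10 neutrophil markers from 224 to 662 CPM in RIP1i and from 229 to 628 CPM in DMSO. Dendritic cell markers, which such cultures share, summed to 1308 to 1450 CPM in RIP1i and 1201 to 1358 CPM in DMSO over 7 genes. Single genes dominated both sums. Itgax alone had 1279 to 1402 CPM in RIP1i and 1173 to 1317 CPM in DMSO. Among the macrophage markers Lyz2 alone had 39866 to 49299 CPM in RIP1i and 46366 to 54100 CPM in DMSO. Lymphoid transcripts were low, with 9 T, NK and B cell markers summing to 1.35 to 1.71 CPM in RIP1i and 1.44 to 2.09 CPM in DMSO. None of the 60 marker genes was at 0 in all libraries. In bulk RNA, fewer cells of a type and less RNA per cell cannot be told apart. Across the whole table edgeR's quasi-likelihood test called 0 of 14857 genes at an adjusted p under 0.05 (0% called), 923 genes had an unadjusted p under 0.05, and DESeq2 called 2 genes. Pde1b was not among those 2.

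RefSeq entries of the promoter, 250 bases before to 50 bases after a transcript start (build GRCm38.p6), were held for 6 of the 8 genes, 17 starts in all. The letters of the cyclic AMP response element (CRE), TGACGTCA, to which CREB binds, were found in 0 of the 17, and in 1.79% of all 32851 promoters. Its shorter core, TGACG on either strand, which is contained in the full motif, stood in 4 of the 17 and in 20.8% of all promoters. The PU.1 core GAGGAAGT, read on both strands, was in 0 of 17 and in 3.20% of all. A match is a description of letters and no match speaks only of this window. The first of 3 entries of Pde1b and the 1 entry of Pde8a, the members of highest FPKM, are shown with those of the 2 PDE4 genes that hold the core, whose letters are in capitals. All 3 Pde1b entries lack the 3 motifs.
Pde1b chr15:103502784-103503083 (plus strand): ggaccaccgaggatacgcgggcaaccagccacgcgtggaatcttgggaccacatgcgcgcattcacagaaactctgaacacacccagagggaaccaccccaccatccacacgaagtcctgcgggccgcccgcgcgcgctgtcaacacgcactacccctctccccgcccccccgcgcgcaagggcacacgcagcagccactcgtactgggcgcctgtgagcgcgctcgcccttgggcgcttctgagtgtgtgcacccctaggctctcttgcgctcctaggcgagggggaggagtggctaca
Pde8a chr7:81213015-81213314 (plus strand): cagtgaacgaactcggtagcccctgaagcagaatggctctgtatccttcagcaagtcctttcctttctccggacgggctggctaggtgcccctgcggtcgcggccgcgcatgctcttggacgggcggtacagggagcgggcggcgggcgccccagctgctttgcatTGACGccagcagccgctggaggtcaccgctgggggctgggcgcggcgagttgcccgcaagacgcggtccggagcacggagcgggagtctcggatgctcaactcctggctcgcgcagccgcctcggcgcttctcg
Pde4a chr9:21183851-21184150 (plus strand): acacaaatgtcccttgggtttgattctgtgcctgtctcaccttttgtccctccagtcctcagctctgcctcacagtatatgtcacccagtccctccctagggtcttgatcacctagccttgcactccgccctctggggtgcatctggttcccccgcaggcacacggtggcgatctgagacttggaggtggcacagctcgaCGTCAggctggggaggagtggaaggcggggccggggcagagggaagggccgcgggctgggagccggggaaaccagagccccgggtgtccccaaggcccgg
Pde4b chr4:102421305-102421604 (plus strand): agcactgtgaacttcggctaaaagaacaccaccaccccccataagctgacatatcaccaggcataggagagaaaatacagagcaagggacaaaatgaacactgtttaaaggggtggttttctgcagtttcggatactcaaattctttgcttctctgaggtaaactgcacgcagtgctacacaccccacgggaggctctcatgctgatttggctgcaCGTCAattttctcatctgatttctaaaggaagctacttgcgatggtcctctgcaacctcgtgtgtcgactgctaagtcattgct
The core begins 84 bases before the RefSeq start in Pde8a, 50 before in Pde4a and 34 before in Pde4b. The Pde8a window ends at 81213314, upstream of the gene start at 81213596 in the GENCODE M21 annotation. The RefSeq and GENCODE starts of Pde8a thus differ, and the distance holds for the RefSeq start only. Counts per gene do not tell which start was used. The fourth entry with the core belongs to Pde2a, where it lies 14 bases after the start.

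The 8 genes covered a wide range of levels, led by Pde8a and Pde1b. On the deposited FPKM scale, which divides counts by gene length, Pde8a stood at 11.5 ± 0.521 in RIP1i and 11.3 ± 0.536 in DMSO (SD, n = 3 each). Pde1b followed at 7.41 ± 0.481 FPKM in RIP1i and 9.72 ± 0.858 FPKM in DMSO. Next came Pde7a at 3.96 ± 0.0651 in RIP1i and 3.67 ± 0.254 in DMSO. Pde4d averaged 1.18 FPKM in RIP1i and 1.33 in DMSO, Pde4a 1.07 in RIP1i and 1.20 in DMSO, and Pde4b lay at 1.06 to 1.18 in RIP1i and 1.12 to 1.16 in DMSO. Over the 6 libraries Pde3b averaged 0.33 FPKM and Pde2a 0.03. Every gene stood above the next in 6 of 6 libraries except Pde4a, which was above Pde4b in 3 of 6, so those neighbours did not differ beyond their spread. Pde4d was above Pde4a in each library, although the ranges over libraries, 1.11 to 1.43 and 1 to 1.31 FPKM, overlapped.

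**Figure D1:**
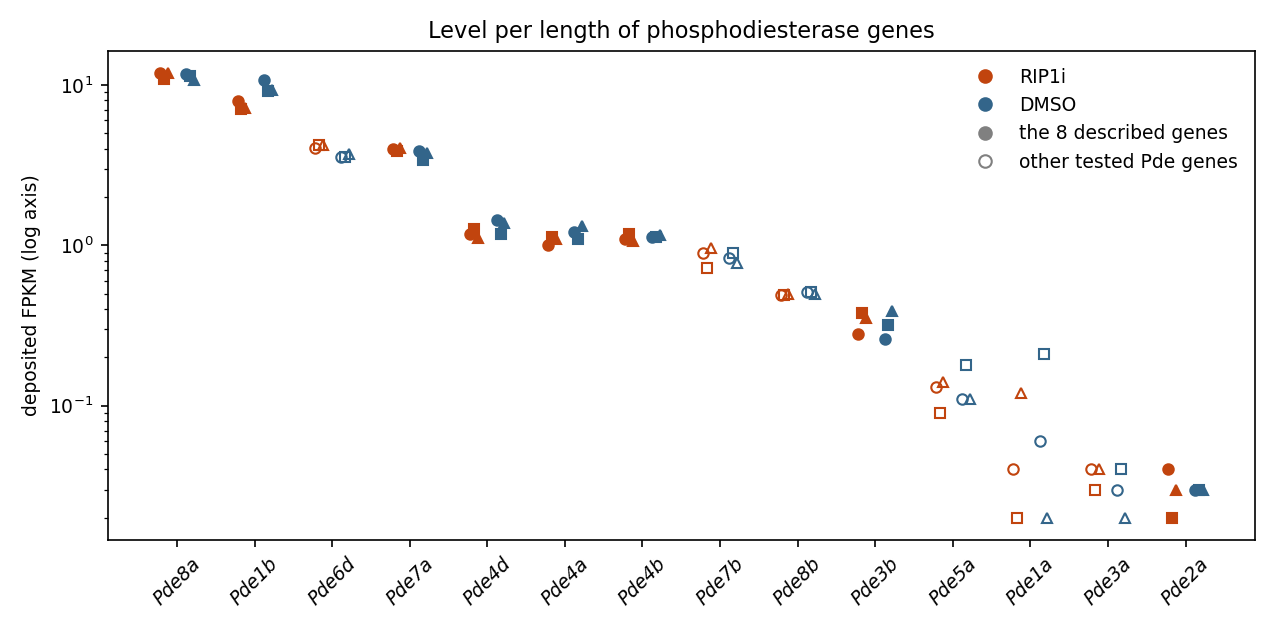
Deposited FPKM (log axis) of the 8 described genes (filled) and the other tested Pde genes (open), ordered by mean level. Each point is a library, RIP1i in orange left of DMSO in blue, with circles, squares and triangles for replicates 1, 2 and 3. Pde8a and Pde1b lead and Pde2a, at 0.02 to 0.04, comes last.

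The position of Pde1b in that order depends on the gene model behind the FPKM. The ratio of counts to FPKM implied a length of 2951 bases for Pde1b, against 5396 bases of merged exons in GENCODE M21, while for the other 7 genes the implied length was at least 98.3% of theirs. Had the same counts been divided by the longer length, Pde1b would lie between 3.88 and 5.86 FPKM and above Pde7a in 4 of 6 libraries. Reads that fall only in exons outside the authors' model would add to this, so these are lower limits. Comparisons of Pde1b between treatments use the same model in every library. Merged exons can be longer than any transcript. The implied length was 2.85 times the longest annotated transcript for Pde4d, 2.45 for Pde4b, 1.64 for Pde4a and 1.43 for Pde2a. It was 1.38 for Pde3b, 1.23 for Pde7a, 1.06 for Pde8a and 0.700 for Pde1b. Levels and shares between all these genes therefore depend on the length used. Levels per transcript were not computed.

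On the deposited FPKM scale, Pde8a and Pde1b together held most of the summed phosphodiesterase signal. These shares rest on the lengths in the FPKM, which exceed the longest annotated transcript most for the PDE4 genes. Of the FPKM summed over 21 genes with a catalytic domain, Pde8a took 40.9%, 40.0% and 41.4% in RIP1i replicates 1 to 3, and 36.7%, 38.5% and 36.3% in DMSO replicates 1 to 3. The share of Pde1b was 27.4%, 26.0% and 25.2% in RIP1i and 33.5%, 31.0% and 31.4% in DMSO. Pde7a took 14.0 ± 0.316% in RIP1i and 12.1 ± 0.646% in DMSO, and the 3 PDE4 genes took 11.9 ± 0.980% in RIP1i and 12.1 ± 0.840% in DMSO (SD, n = 3 each). The 8 genes made up 94.2 ± 0.573% of the pool in RIP1i and 94.5 ± 0.799% in DMSO. With the longer exon length Pde1b would take 16.3 ± 0.800% in RIP1i and 20.5 ± 0.989% in DMSO, and Pde8a 46.3 ± 0.814% in RIP1i and 43.5 ± 1.24% in DMSO (SD, n = 3 each). Shares add to a fixed total, so a lower share of Pde1b raises the others. The summed FPKM without Pde1b was 20.8 ± 0.554 in RIP1i and 20.6 ± 0.563 in DMSO.

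**Figure D2:**
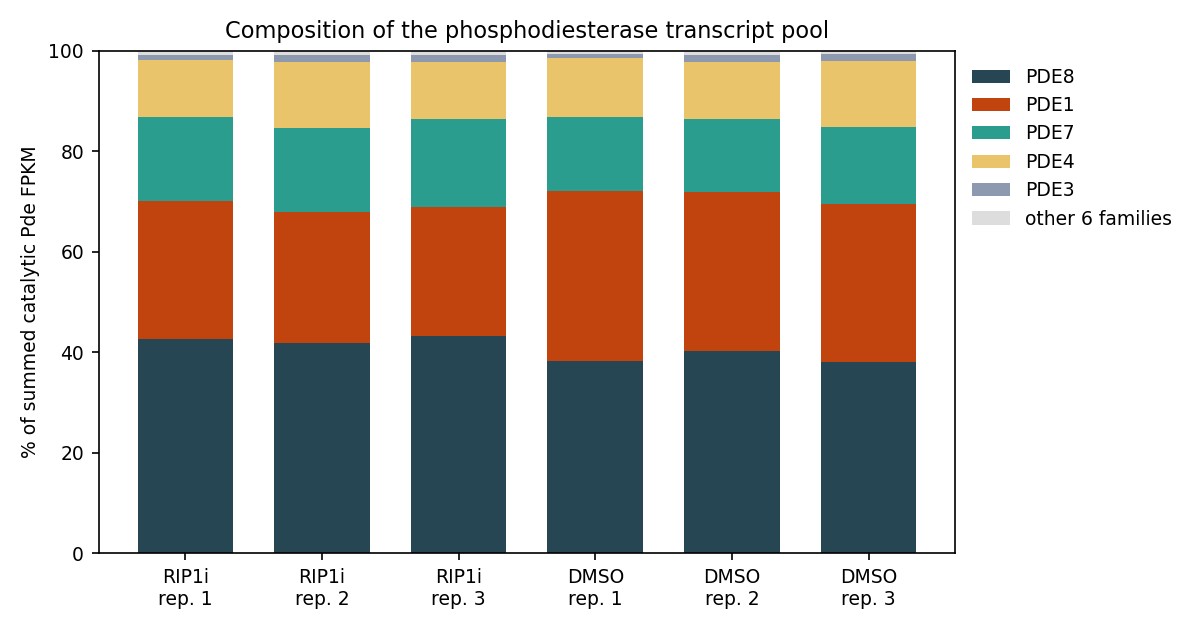
Share of each phosphodiesterase family in the FPKM summed over 21 catalytic genes, per library, RIP1i left and DMSO right. PDE1, nearly all of it Pde1b, takes 25.6% to 27.6% in RIP1i and 31.5% to 33.7% in DMSO.

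Among the enzymes that take both nucleotides, Pde1b was lower with RIP1i in each library. Pde1b (chromosome 15, 103503034 to 103530052, plus strand, GRCm38) encodes the calmodulin-dependent phosphodiesterase 1B. It had 951, 879 and 885 counts in RIP1i replicates 1 to 3, or 23.6, 20.9 and 21.4 CPM, against 1412, 1095 and 1233 counts in DMSO replicates 1 to 3, or 31.8, 27.3 and 27.2 CPM. The highest RIP1i library lay below the lowest DMSO library, and DMSO replicate 1 stood above the other DMSO libraries. Groups that do not overlap were seen for 13.5% of all tested genes, 6.18% with RIP1i lower and 7.36% with RIP1i higher, and Pde1b was the only one of the 7 tested members among them. The fitted log2 fold change was -0.39 ± 0.079 (SE, 95% interval -0.57 to -0.21), a fold of 0.763 (0.672 to 0.867). It ranged from -0.45 to -0.32 when any library was left out. Pde1b was chosen for its small p in this contrast, so these values may overstate the difference. The ratio of Pde1b to Pde8a FPKM was 0.671, 0.649 and 0.609 in RIP1i and 0.911, 0.806 and 0.864 in DMSO, or 0.352 ± 0.0173 in RIP1i and 0.471 ± 0.0288 in DMSO (SD, n = 3 each) with the longer exon length.

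**Figure D3:**
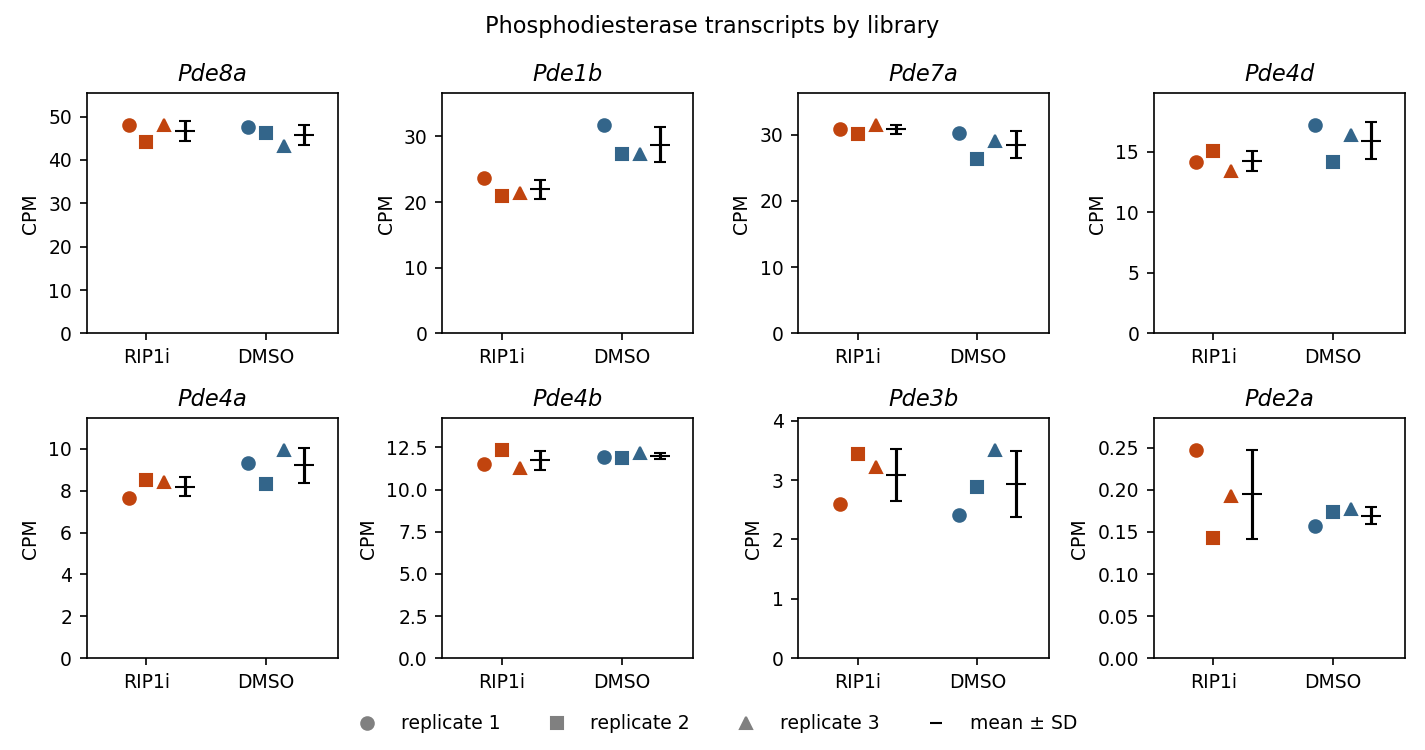
CPM of the 8 genes in each library, RIP1i (orange) left of DMSO (blue), with the mean ± SD (n = 3) in black beside the points and every axis starting at 0. Pde1b is the gene whose points do not overlap, with 20.9 to 23.6 CPM in RIP1i and 27.2 to 31.8 CPM in DMSO.

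Pde2a (chromosome 7, 101421691 to 101512827, plus strand) encodes the cyclic GMP-stimulated phosphodiesterase 2A and was near the detection limit. It had 10, 6 and 8 counts in RIP1i and 7, 7 and 8 counts in DMSO, and it was the 1 member removed by the filter on low counts. The summed counts of 24 in RIP1i and 22 in DMSO give a ratio, scaled to library size, whose exact 95% interval runs from 0.615 to 2.14 and covers counting error only. Its level is uncertain, since Gm45837, a gene on the same strand, covers 64.3% of its exon bases, and how the authors counted reads in shared exons is not given in the sources used here. Gm45837 itself had 7 counts in RIP1i and 8 in DMSO.

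Pde3b (chromosome 7, 114415281 to 114539251, plus strand) encodes the cyclic GMP-inhibited phosphodiesterase 3B, best known from the insulin response of fat cells. It had 2.60, 3.44 and 3.21 CPM in RIP1i and 2.41, 2.89 and 3.51 CPM in DMSO. The groups overlapped over nearly their whole range. The log2 fold change was 0.072, with an interval from -0.34 to 0.49. It was 0.22 without DMSO replicate 3, and its sign turned to -0.064 without DMSO replicate 1 and -0.025 without RIP1i replicate 2. Pde3b varied most among the tested members, with a biological coefficient of variation of 16.1%, against a median of 14.0% for genes of like CPM.

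The 3 PDE4 genes, whose products are the targets of rolipram-type inhibitors, were fitted lower with overlapping groups. Pde4b (chromosome 4, 102087543 to 102607259, plus strand), which in mouse macrophages is needed for full TNF output after endotoxin, had 11.5, 12.4 and 11.3 CPM in RIP1i and 11.9, 11.9 and 12.2 CPM in DMSO. The RIP1i values lay on either side of the DMSO values. Its log2 fold change was -0.033, with an interval from -0.18 to 0.11, a fold between 0.885 and 1.08. Without RIP1i replicate 2 it was -0.084 and without RIP1i replicate 3 it was -0.011.

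Pde4d (chromosome 13, 108449948 to 109953461, plus strand), with 20 annotated transcripts over 1503.5 kb the longest locus of the set, had 14.1, 15.1 and 13.5 CPM in RIP1i and 17.2, 14.2 and 16.4 CPM in DMSO. Only DMSO replicate 2 fell among the RIP1i values. The log2 fold change was -0.17, with an interval from -0.36 to 0.032, and it ran from -0.25 without DMSO replicate 2 to -0.12 without DMSO replicate 1. Pde4a (chromosome 9, 21165714 to 21213248, plus strand) had 7.66, 8.53 and 8.41 CPM in RIP1i and 9.33, 8.34 and 9.97 CPM in DMSO. Here too DMSO replicate 2 was the library that overlapped RIP1i. The log2 fold change was -0.17 (-0.38 to 0.041), and it ran from -0.24 without DMSO replicate 2 to -0.11 without DMSO replicate 3.

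DMSO replicate 2 also had the highest stromal marker level, 345 CPM, and the lowest neutrophil marker level of the DMSO libraries, 229 CPM, and RIP1i replicate 2 had the lowest stromal level, 75.4 CPM, and the highest neutrophil level, 662 CPM. The part of these markers in the PDE4 values was not tested. Without both libraries the log2 fold changes were -0.28 for Pde4a, -0.30 for Pde4d, -0.094 for Pde4b and -0.40 for Pde1b. For Pde4a, Pde4b and Pde4d, RIP1i replicate 2 was the highest RIP1i library and DMSO replicate 2 the lowest DMSO library. Leaving both out, a choice made after seeing the data, therefore had to move the PDE4 values down. The libraries then left had 467 and 224 CPM of neutrophil markers in RIP1i and 460 and 628 CPM in DMSO. Their stromal markers were at 223 and 175 CPM in RIP1i and 196 and 81.9 CPM in DMSO. That comparison was therefore not balanced in these markers. Within the PDE4 genes the composition was even on the FPKM scale. Pde4a, Pde4b and Pde4d made up 31.9%, 33.0% and 35.1% of their summed FPKM in RIP1i and 32.8%, 31.1% and 36.1% in DMSO. Without division by length they differed more, averaging 8.70, 11.9 and 15.1 CPM over the libraries. The implied lengths were 7637, 10530 and 12000 bases, against longest transcripts of 4653, 4304 and 4207 bases. The even split therefore rests on those lengths.

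The cyclic AMP-specific genes outside PDE4 were fitted at or slightly above the DMSO level. Pde7a (chromosome 3, 19223108 to 19311322, minus strand), a phosphodiesterase known from T cells, had 30.8, 30.1 and 31.5 CPM in RIP1i and 30.2, 26.3 and 29.0 CPM in DMSO. A single DMSO library, replicate 1, reached into the RIP1i range. The log2 fold change was 0.11, with an interval from -0.026 to 0.25, and it ran from 0.051 without DMSO replicate 2 to 0.14 without DMSO replicate 1. The 48 bases that Pde7a shares with the antisense gene Gm16093, which had at most 4 counts in a library, are 0.620% of its exons.

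Pde8a (chromosome 7, 81213596 to 81334533, plus strand) encodes a phosphodiesterase of high affinity for cyclic AMP that the broad inhibitor IBMX does not block. It had 48.1, 44.0 and 48.1 CPM in RIP1i and 47.7, 46.3 and 43.1 CPM in DMSO. The groups overlapped, and the log2 fold change was 0.032, with an interval from -0.099 to 0.16, a fold between 0.934 and 1.12. This was the narrowest interval among the 7 tested members. The summed FPKM of the PDE4, PDE7 and PDE8 families was 20.2 ± 0.526 in RIP1i and 20.0 ± 0.679 in DMSO (SD, n = 3 each).

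Of the 7 tested members, 3 were fitted higher and 4 lower, where 49% of all tested genes were fitted lower. Their median log2 fold change was -0.033, against 0.0025 over all tested genes.

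**Figure D4:**
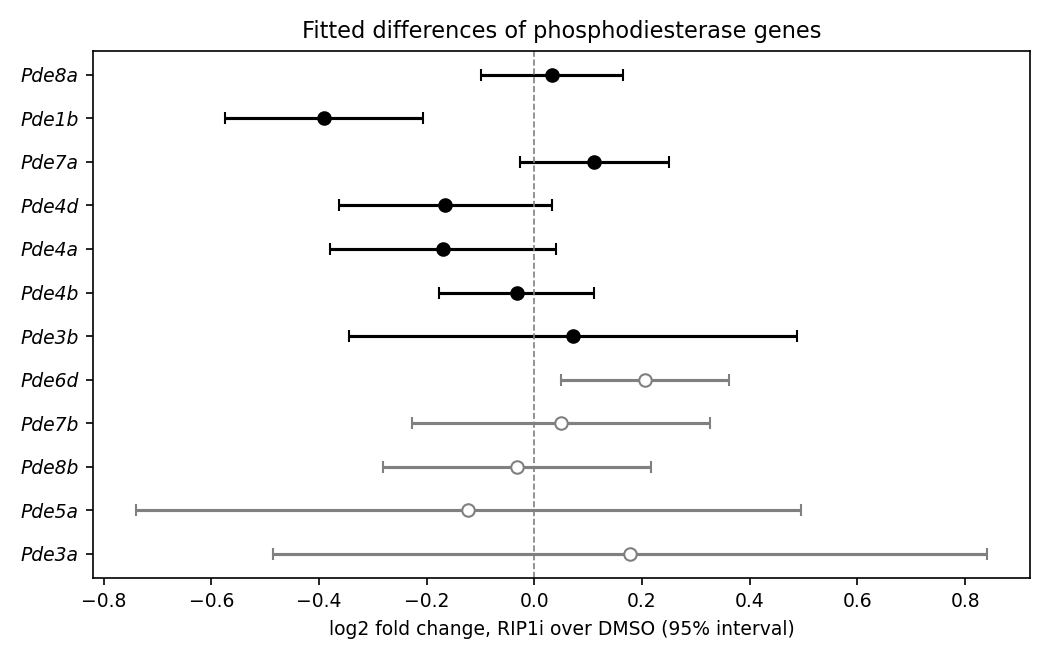
Fitted log2 fold change of RIP1i over DMSO with its 95% interval for the 7 tested members (filled) and other tested Pde genes (open). Pde1a, whose interval runs from -2.79 to 1.31, is left out for scale. The interval of Pde1b, from -0.57 to -0.21, lies below 0 and that of Pde6d, from 0.050 to 0.36, above it. Intervals are not adjusted for the number of genes tested. Pde1b was chosen for its small p, so its distance from 0 is no test.

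Among the other 16 genes of the family, 6 could be tested and 0 passed. Pde6d, which encodes a prenyl-binding chaperone without a catalytic domain, had 9.10 ± 0.244 CPM in RIP1i and 7.89 ± 0.177 CPM in DMSO (SD, n = 3 each), and the groups did not overlap. The fitted log2 difference was 0.21 (0.050 to 0.36), and the adjusted p was 0.777 in edgeR's quasi-likelihood test. Pde7b, at 10.7 ± 1.62 CPM in RIP1i and 10.4 ± 0.780 CPM in DMSO, and Pde8b, at 2.91 ± 0.0369 CPM in RIP1i and 2.97 ± 0.0495 CPM in DMSO, are the paralogs of Pde7a and Pde8a. The groups overlapped for both. Pde5a, which encodes the target of sildenafil, was at 1.21 ± 0.258 CPM in RIP1i and 1.33 ± 0.404 CPM in DMSO, and Pde3a at 0.421 ± 0.0768 CPM in RIP1i and 0.373 ± 0.0935 CPM in DMSO. Pde1a, the paralog of Pde1b, had 10, 4 and 29 counts in RIP1i and 16, 52 and 6 counts in DMSO. Its highest value was in DMSO replicate 2 and its lowest in RIP1i replicate 2, the libraries with the highest and the lowest stromal marker level, and the part of those markers was not tested. The 10 others had at most 10 counts in any library.

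Genes that make, sense and export cyclic nucleotides gave 0 calls. Over 9 lists, 67 genes were tested with edgeR, 38 fitted lower and 29 higher in RIP1i, with no adjusted p below 0.777. An unadjusted p under 0.05 was given to 5 lower and 4 higher genes (13.4%, against 6.21% of all tested genes, 2.62% lower and 3.59% higher), and 6 were lower and 9 higher without overlap (22.4%, against 13.5%). The lists were chosen with earlier results of these data known, so the higher shares are no test of the pathway. The median log2 fold change was -0.036, against 0.0025 over all tested genes.

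Of the receptors and G proteins upstream, 12 of 14 were tested, with 5 fitted higher and 7 lower. Gnai3, an inhibitory G protein subunit, had a log2 fold change of 0.15 ± 0.050 (SE), the prostacyclin receptor gene Ptgir 0.089 ± 0.036 and the adenosine receptor gene Adora2b 0.22 ± 0.13, while the beta-adrenergic receptor gene Adrb1 had -0.095 ± 0.093. The groups of Gnai3 and Ptgir did not overlap, with Ptgir at 193 ± 1.57 CPM in RIP1i and 181 ± 4.58 CPM in DMSO (SD, n = 3 each). Among adenylyl cyclases 5 of 10 were tested, 2 fitted higher and 3 lower. Adcy7 led them per length, averaging 76.2 FPKM over the libraries, against 2.71 for Adcy3 and 2.60 for Adcy9. It had 501 ± 24.5 CPM in RIP1i and 528 ± 11.1 CPM in DMSO (SD, n = 3 each), a log2 fold change of -0.075 ± 0.048 (SE). Adcy3 had -0.19 ± 0.10, Adcy9 0.071 ± 0.074 and Adcy4 0.16 ± 0.17. Guanylyl cyclase genes had few counts, with 3 of 11 tested. Npr1, a natriuretic peptide receptor gene, was at 1.69 ± 0.265 CPM in RIP1i and 1.65 ± 0.204 CPM in DMSO, and Npr2 and Gucy1b3 were below 1 CPM in both groups.

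Calm2 and Calm3 encode calmodulin, which activates PDE1. Calm2 was at 275 ± 16.1 CPM in RIP1i and 259 ± 6.86 CPM in DMSO (SD, n = 3 each), a log2 fold change of 0.084 ± 0.051 (SE), and Calm3 had 0.027 ± 0.052, neither passing. Of 11 tested effectors, 4 were fitted higher and 7 lower. Pkig, a protein kinase A inhibitor gene, had -0.15 ± 0.050, and Prkacb, a catalytic subunit of that kinase, had 0.090 ± 0.042, each without overlap of the groups. The regulatory subunit genes Prkar1b and Prkar2b had -0.19 ± 0.18 and 0.061 ± 0.073. Of 11 tested anchoring proteins, 4 were fitted higher and 7 lower. Akap6, at only 1.25 ± 0.0899 CPM in RIP1i and 0.793 ± 0.0760 CPM in DMSO, had 0.66 ± 0.17, Akap8l had -0.13 ± 0.054, Akap1 -0.11 ± 0.054 and Akap7 -0.10 ± 0.076.

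**Figure D5:**
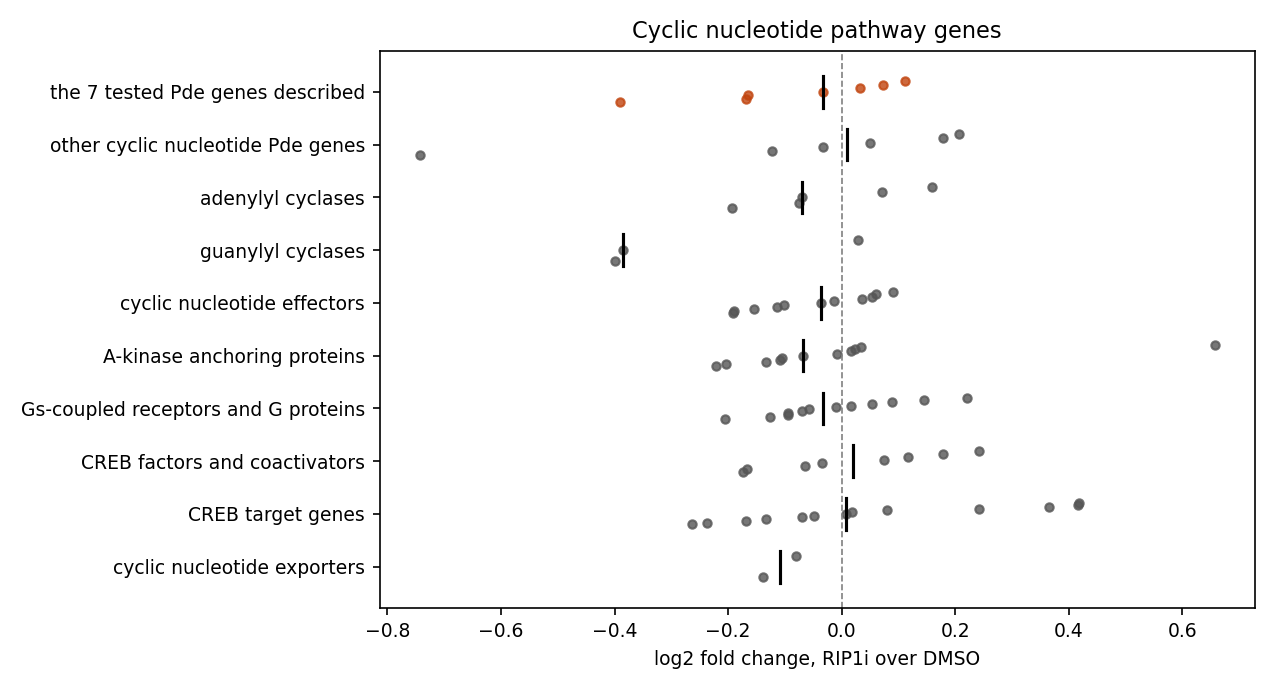
Log2 fold change of RIP1i over DMSO for the tested members (orange) and the tested genes of each pathway list except calmodulin (grey), with a black bar at each list's median. The points lie on both sides of 0 in all lists shown except the exporters, with 2 of 2 below.

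CREB factors and coactivators were split into 4 higher and 4 lower of 8. Creb1 was at 52.7 ± 3.19 CPM in RIP1i and 46.6 ± 2.02 CPM in DMSO (SD, n = 3 each), a log2 fold change of 0.18 ± 0.057 (SE), and Crem, whose products include a repressor of CREB targets, had 0.24 ± 0.10. The coactivator genes Crtc2 and Ep300 had -0.17 ± 0.087 and -0.17 ± 0.088. Among 13 tested CREB target genes other than the PDE4 members, 7 were fitted higher and 6 lower. The clock gene Per1 was at 13.1 ± 0.507 CPM in RIP1i and 15.5 ± 0.588 CPM in DMSO, a log2 fold change of -0.24 ± 0.060, and Fos had -0.17 ± 0.057, while Nr4a1, a nuclear receptor gene, had 0.42 ± 0.22 at under 1 CPM. Of the exporters of cyclic nucleotides, Abcc4 was at 39.1 ± 1.33 CPM in RIP1i and 43.0 ± 1.86 CPM in DMSO, a log2 fold change of -0.14 ± 0.049, and Abcc5 had -0.081 ± 0.082. None of these passed in edgeR's quasi-likelihood test, with adjusted p-values of 0.777 or more.

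By root mean square difference of centred log2 CPM over the 6 libraries, genes most like Pde1b among 8357 genes with at least 10 CPM included Leng8 (0.071), Arhgap17 (0.088), Zfp692 (0.090) and Ubald1 (0.092). The median difference over all of these genes was 0.23. Likeness here includes the difference between treatments for which Pde1b was noticed. Leng8 stood at 58.0, 51.4 and 55.2 CPM in RIP1i and 72.4, 61.3 and 63.1 CPM in DMSO, with DMSO replicate 1 the highest library, as for Pde1b. Among the members, Pde4d was nearest to Pde1b, at 0.15, and Pde3b farthest, at 0.36.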

How the data were processed

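RNA was sequenced from 3 RIP1i and 3 DMSO libraries of mouse bone marrow derived macrophages, grouped by the treatment in the labels. The authors deposited raw read counts per gene and FPKM values rounded to 2 decimals. The submitters' processing notes name build mm10 and, with no roles, STAR 2.5.3a, Subread 1.4.6-p3 with featureCounts, CASAVA 1.8.4 and DESeq2 1.14.0. Not given in the sources used here are annotation, strand setting and treatment of shared reads.

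The default filterByExpr (minimum count 10, minimum total 15) left 14857 genes, and TMM factors ran from 0.978 to 1.01. In edgeR 4.0.16 (R 4.3.3), the quasi-likelihood test had treatment as the only term, with Benjamini-Hochberg adjusted p under 0.05, 2-sided. Intervals are 95%. CPM includes genes below the filter. DESeq2 1.42.0 and limma 3.58.1 gave alternatives. Coordinates come from GENCODE M21 and promoters from RefSeq, both GRCm38, the same build as mm10.

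Members and lists were chosen with earlier results of these data known. Named are the members, every other tested phosphodiesterase gene, up to 4 genes with the smallest p in each pathway list, and the 5 genes most like Pde1b, except genes that are not reported here. Gm45837 and Gm16093 lie outside this rule and are named for their overlap with a member. Lyz2, Itgax, Kit and Pf4 also lie outside it and are named as the largest part of a marker sum. Marker levels were summed over dendritic cell (1308 to 1450 CPM in RIP1i, 1201 to 1358 in DMSO), mast cell and basophil (172 to 208 in RIP1i, 171 to 211 in DMSO) and erythroid and megakaryocyte lists (20.5 to 22.0 in RIP1i, 18.8 to 21.9 in DMSO) as well. Kit alone had 157 to 184 CPM in RIP1i and 161 to 186 in DMSO within the mast cell and basophil sum. Pf4 alone had 16.2 to 18.0 CPM in RIP1i and 14.5 to 16.8 in DMSO within the erythroid and megakaryocyte sum.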

Additional observations from a re-analysis of the deposited data

How the results depend on the processing

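The number of genes called stayed at 0 with other scalings, without a filter, with at least 1 CPM in 3 libraries, in limma-voom, in limma-trend on FPKM of at least 0.5, and with any library left out (0 in each case). It was 2 with DESeq2 and 9 with limma-trend on log2(FPKM + 1) without a filter. Pde1b was below 0 in all 17 alternatives, from -0.45 without RIP1i replicate 1 to -0.32 without DMSO replicate 1. It was chosen for its small p in this contrast, and its groups do not overlap. Its sign could therefore hardly turn, and the steadiness is no independent support. Replicate numbers did not pair the libraries: deviations of same-numbered RIP1i and DMSO libraries correlated at -0.059, -0.63 and -0.66 across 8535 genes, which are not independent replicates. Between differently numbered libraries the correlations ran from -0.39 to 0.76, the highest for RIP1i replicate 2 with DMSO replicate 3. Deviations were centred within 3 libraries, which constrains these values. With the number as a replicate block 0 genes were called, and Pde1b had -0.39 ± 0.055 (SE). Pde4a, Pde4b and Pde4d stayed below 0 and Pde7a above 0 in all 17. Pde8a turned to -0.012 without DMSO replicate 3, and Pde3b was below 0 in 3 of 15. Several pathway medians changed sign with a library left out, among them the guanylyl cyclases and the effectors. The guanylyl cyclase median was 0.084 over 4 genes without DMSO replicate 2, against -0.38 over 3 genes with all libraries. That of the effectors was 0.024 over 12 genes without RIP1i replicate 2, against -0.036 over 11 genes. The filter was run anew in each fit, so these changes mix libraries left out with genes gained. With upper-quartile scaling the CREB target median was -0.0017, against 0.0081. Leaving out replicate 2 of both groups, and the longer exon length for Pde1b, were chosen after seeing the data. Depth limits Pde2a, with 6 to 10 counts in a library.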
